A study of Homo sapiens with 6 samples.

Results

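Chromatin contacts were examined at 7 human genes that encode or organise the extracellular matrix: COL1A1, COL1A2, COL4A1, COL4A2, COL5A1, FN1 and SPARC. Each gene was taken with 5 kb added on each side (hg19). COL4A1 and COL4A2 lie next to each other and were treated as a single window, which left 6 gene windows. A loop belonged to a window when either of its anchors, the 2 regions that it joins, overlapped that window. Of the listed loops, 110 of 157578 and 111 of 164053 met this rule in the ARID1A libraries, 62 of 162010 and 56 of 162167 in the libraries for H3K27ac at day 3, and 29 of 46677 and 31 of 44104 in those for H3K27ac at day 0.

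The assay was HiChIP, in which DNA ends held close together in the nucleus are joined and the joined fragments carrying a chosen protein or histone mark are then enriched. The 6 libraries came from G401, an established human rhabdoid tumour cell line without SMARCB1, one of the core proteins of the chromatin remodeller SWI/SNF. All libraries came from a stable derivative in which doxycycline at 1 μg/ml turns SMARCB1 back on, grown in medium with Tet-free serum. The groups were ARID1A, another SWI/SNF subunit, at day 3 (SMARCB1 +/+ per the labels), H3K27ac, the histone acetylation found at active promoters and enhancers, at day 3 (SMARCB1 +/+), and H3K27ac at day 0 (SMARCB1 -/-), with 2 libraries each. The day 3 and day 0 groups differ in SMARCB1, in doxycycline and in time, whose effects cannot be told apart. Separate cultures are not stated for the replicates, and p-values then cover only library-to-library spread, which may be technical. The files do not measure SMARCB1 itself or any transcript.

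A listed contact is counted in paired-end tags (PETs), each a read pair that joins both anchors of a loop. Libraries listed 435210 and 467487 PETs for ARID1A, 929128 and 982141 for H3K27ac at day 3, and 301703 and 253502 for H3K27ac at day 0. Identical anchors made up 98.4% to 99.7% of the shorter list within a group, and 1.74% to 3.48% across groups. A stretch without an anchor in a group was therefore not measured there, and the 0 listed for it sets no level of contact.

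Type I collagen, the main fibre-forming collagen of connective tissue, is a trimer of chains made from COL1A1 and COL1A2. COL4A1 and COL4A2 supply the chains of the network collagen of basement membranes, COL5A1 supplies a chain of a minor collagen that helps to start type I fibrils, and FN1 encodes fibronectin, which links cells and collagen through integrins. SPARC encodes a secreted glycoprotein that binds collagen and affects fibril assembly. As background, genes of this kind are often controlled by enhancers far from their promoters, and AP-1 is among the factors known to bind such enhancers in mesenchymal cells.

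Bases upstream of the annotated start were matched by symbol in a RefSeq table (GRCh38.p14) for 5 of the 7 genes. SPARC is shown because its start carried an anchor in all 3 groups, FN1 because its window carried none, and COL4A1 because its upstream bases also lie next to COL4A2. Each sequence is the 250 bases before the start, read 5′ to 3′ on the strand of the gene. Capitals mark letters that match TGANTCA (the AP-1 site), TGACGTCA (the cAMP response element, bound by CREB and ATF factors) or TATAA (the core of a TATA box), searched on both strands.
SPARC, chr5:151686916-151687165, - strand: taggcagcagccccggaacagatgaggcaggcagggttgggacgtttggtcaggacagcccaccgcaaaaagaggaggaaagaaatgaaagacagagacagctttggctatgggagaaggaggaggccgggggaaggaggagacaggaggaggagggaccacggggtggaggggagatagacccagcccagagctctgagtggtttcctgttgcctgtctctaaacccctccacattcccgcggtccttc
FN1, chr2:215436069-215436318, - strand: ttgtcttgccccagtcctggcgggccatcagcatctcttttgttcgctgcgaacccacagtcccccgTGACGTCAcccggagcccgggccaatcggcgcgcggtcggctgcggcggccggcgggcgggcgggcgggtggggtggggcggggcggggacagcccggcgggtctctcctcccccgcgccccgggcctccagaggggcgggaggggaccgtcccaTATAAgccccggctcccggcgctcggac
COL4A1, chr13:110307158-110307407, - strand: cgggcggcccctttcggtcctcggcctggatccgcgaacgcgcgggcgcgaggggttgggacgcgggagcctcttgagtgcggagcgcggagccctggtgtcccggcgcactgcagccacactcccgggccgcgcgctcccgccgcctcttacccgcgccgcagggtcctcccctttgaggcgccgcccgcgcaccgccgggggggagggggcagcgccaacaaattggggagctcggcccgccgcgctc

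The AP-1 letters were found in 0 of the 5 upstream sequences, while 6.57% of the 35116 promoters in the table hold them. FN1 held TGACGTCA with its first base at -183 and TATAA at -28, counted from the start. These letters occur in 1.65% and 18.9% of all promoters in the table. GGGCGG, a GC box and the core of the site bound by SP1 and related factors, occurs in 42.6% of them. FN1 had 6 matches to GGGCGG, COL5A1 had 2, COL4A1 had 2, COL4A2 had 1 and SPARC had 0. G and C made up 59.2% of the SPARC bases, against 74.0% to 78.8% in the other 4 genes. The starts of COL4A1 and COL4A2 point away from each other with 126 bases between them, and their table entries of 300 bases share 226 bases on opposite strands. A match is a run of letters and not a measured binding site, and the absence of a match covers only this stretch.

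Levels are given as CPM, the PETs of a window scaled to the listed total of the library. Across the windows with 5 kb added, COL1A1 had the highest CPM per kb of window in each of the 3 groups, followed by SPARC. The place of COL1A1 depended on the flank. With 0 kb added, it had 0 PETs in both day 0 libraries, against 7 and 5 at SPARC. For ARID1A it then had 71.2 and 59.9 CPM, against 172.3 and 162.6 at SPARC. FN1 carried no PETs in any library. COL1A2 came after SPARC in both day 3 groups and had no anchor at day 0. COL4A1 with COL4A2 and COL5A1 each had a single small ARID1A anchor and no H3K27ac anchor. Per kb of window, the mean level in the ARID1A libraries was 8.86 CPM for COL1A1, 4.64 CPM for SPARC and 1.99 CPM for COL1A2. For H3K27ac at day 3 these levels were 5.002, 2.02 and 0.919 CPM per kb, and at day 0 they were 10.3 CPM per kb for COL1A1 and 0.595 for SPARC. Neighbours in this order did not overlap between libraries. As a comparison for the empty windows, 28.4% of all 50 kb tiles of the genome held an anchor for ARID1A, 21.0% for H3K27ac at day 3 and 11.8% for H3K27ac at day 0. The plot of window levels by library shows both replicates of each group close together at the 3 genes with H3K27ac anchors.

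**Figure D1:**
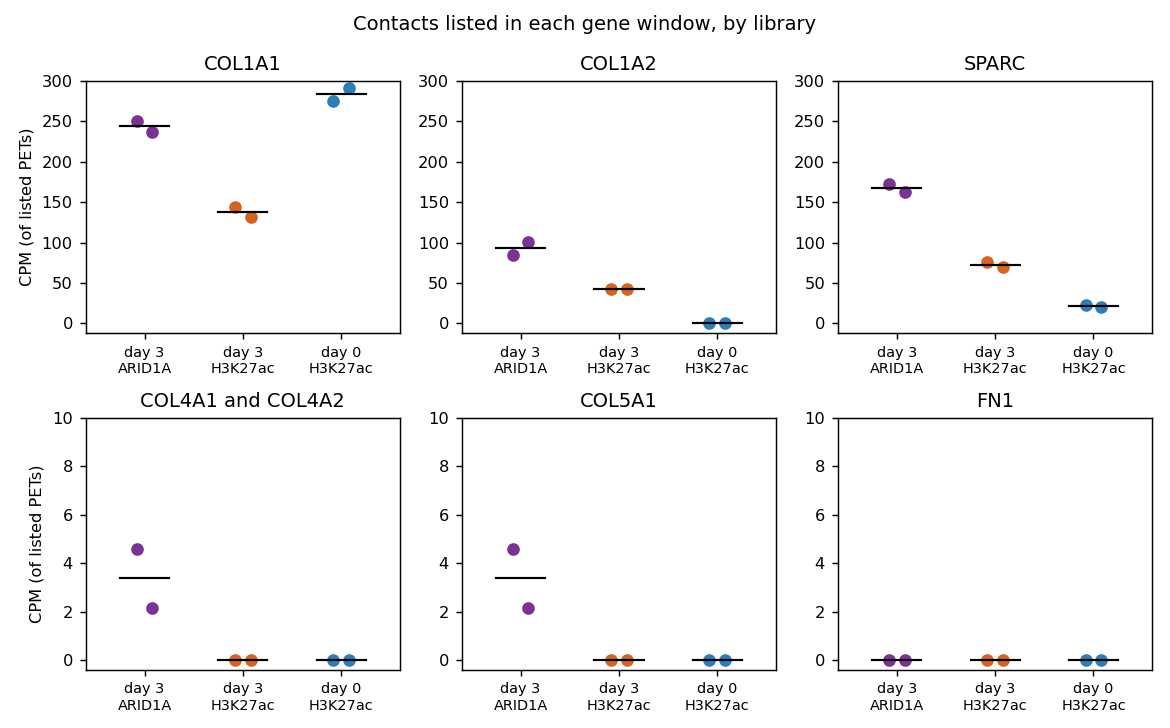
Each panel is a gene window, the vertical axis gives CPM of the listed PETs of the library, dots are the 2 libraries of a group and the bar is their mean. COL1A1, COL1A2 and SPARC share an axis, and the lower row has a smaller one. SPARC is higher for H3K27ac at day 3 than at day 0, and a dot at 0 marks a window with no anchor in that group.

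At SPARC, the gene start carried an H3K27ac anchor at both times, and its listed contacts were higher at day 3. The window held 71 and 68 PETs in the day 3 H3K27ac libraries, against 7 and 5 PETs in the day 0 libraries. Both day 3 libraries lay above both day 0 libraries, also after scaling, with 72.8 ± 5.08 CPM at day 3, against 21.5 ± 2.46 CPM at day 0 (SD over 2 libraries each). The log2 fold change was 1.57 ± 0.37 (SE), with an adjusted p of 0.000116 by edgeR's quasi-likelihood test over all windows. Of the 6648 windows tested in this comparison, 62.3% passed the threshold in either direction. The SPARC window reached the minimum of 10 PETs only through its day 3 libraries, so the filter itself favoured high day 3 counts. When either day 3 library was left out, the window was no longer tested. With only loops at a deposited value of 0.01 or less, its log2 fold change was 3.11 (adjusted p = 0.0431).

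All day 0 PETs of the SPARC start, 7 of 7 and 5 of 5, led to partners that were also called at day 3. In the day 3 H3K27ac libraries, the anchor over the start (chromosome 5, 151059923 to 151067946) had 24 and 28 PETs to a region at 151115756 to 151133945, 60.9 kb away. This contact made up 37.4% of the window's day 3 PETs, and that region had no anchor at day 0. At day 0, the median span of the window's PETs was 1213 kb and 1197 kb in the 2 libraries, against 73.8 kb in each day 3 library. Those day 0 medians rest on 7 and 5 PETs. Contacts with near regions that had no anchor at day 0 could not be listed then, so the medians do not measure a change in span. Within 150 kb of the start, 6 anchors were listed at day 3 and 2 at day 0.

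Part of the SPARC difference went with which partners were called. Of the day 3 PETs of the start anchor, 46 of 71 and 45 of 68 led to partners that had no anchor at day 0 (64.8% and 66.2%). Over all anchors called at both times, this share was 25.8% and 25.5% of day 3 PETs, and 8.56% and 8.44% of day 0 PETs led to partners with no anchor at day 3. Counting only loops between anchors called at both times left 25 and 23 PETs in the day 3 libraries, against 7 and 5 in those of day 0. On these the log2 fold change of the anchor was 0.71 ± 0.44 (SE), with an adjusted p of 0.193 by edgeR's quasi-likelihood test, and its called width was 8023 bp at day 3, against 4897 bp at day 0.

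At COL1A2, an H3K27ac anchor was listed over the gene start at day 3 (chromosome 7, 94019998 to 94026874), and no anchor was listed anywhere in the window at day 0. The window held 40 and 42 PETs for H3K27ac at day 3, against 0 and 0 at day 0. No fold is given, because the day 0 value is set by the absence of an anchor. The nearest day 0 anchor lay 72.6 kb outside the window and carried 5 and 4 PETs. The strongest day 3 contact of the start, 18 and 19 PETs, reached a region at 93924292 to 93932717, 94.9 kb away, and held 45.1% of the window's PETs. The next, 5 and 9 PETs, ended at 93972161 to 93977031. In all, 57.5% and 66.7% of the window's day 3 PETs spanned less than 100 kb.

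At COL1A1, the anchors themselves sat at different places, and the direction of the difference depended on where the window ended. At day 3 the H3K27ac anchor in the window lay over the gene start (chromosome 17, 48276183 to 48279943). At day 0 the only H3K27ac anchor in the window lay 4352 bp upstream of the start (48283352 to 48290384), with 648 bp inside the window. The day 3 counterpart of that upstream anchor (48284876 to 48301047), with 345 and 345 PETs, began 876 bp outside the window. The map of listed anchors shows these positions for the 3 groups.

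**Figure D2:**
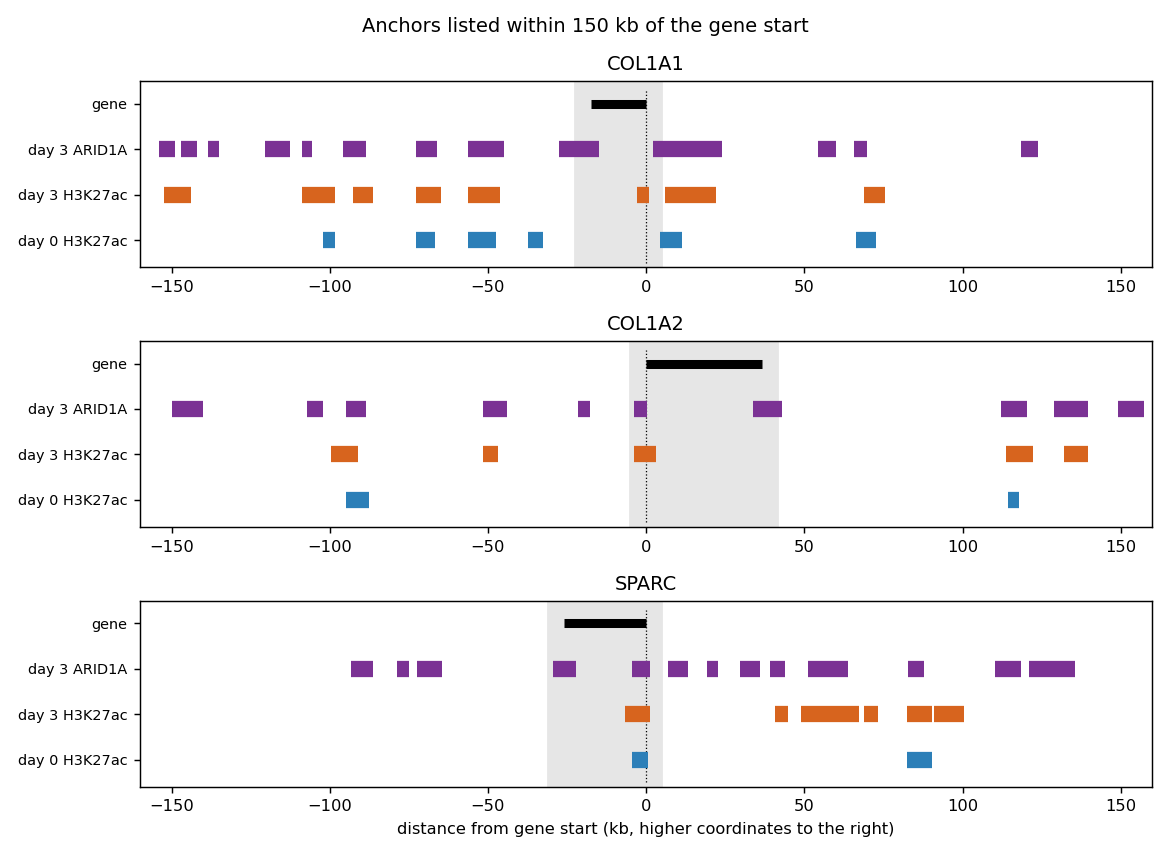
Horizontal position is distance from the gene start in kb, black bars are the genes, coloured bars are listed anchors of the day 3 ARID1A, day 3 H3K27ac and day 0 H3K27ac groups, and grey marks the gene with 5 kb added on each side. An H3K27ac anchor over the start of COL1A1 and of COL1A2 is drawn at day 3 and not at day 0, and SPARC has one at both times.

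The COL1A1 window held 134 and 129 PETs in the day 3 H3K27ac libraries, against 83 and 74 PETs in the day 0 libraries. Scaled to library totals, the order turned round, with 137.8 ± 9.10 CPM at day 3, against 283.5 ± 11.9 CPM at day 0 (SD over 2 libraries each), and the groups did not overlap. The log2 fold change was -1.21 ± 0.16 (SE), adjusted p = 4.22e-11 by edgeR's quasi-likelihood test. With 25 kb added on each side, both upstream anchors were counted, and the log2 fold change was -0.13 with an adjusted p of 0.346. With no added flank, day 0 had no anchor in COL1A1 and the window was not tested. With only loops at a deposited value of 0.01 or less, the fold was -0.90 (adjusted p = 0.316).

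With TMM scaling and anchors called at both times, the region upstream of COL1A1 had more H3K27ac contacts at day 3. Overlapping anchors of the 3 groups were merged into a consensus anchor at 48281281 to 48302859, and only loops between anchors called at both times were counted. This gave 260 and 257 PETs in the day 3 libraries, against 77 and 66 PETs in the day 0 libraries. The log2 fold change was 0.58 ± 0.14 (SE), adjusted p = 0.000282 by edgeR's quasi-likelihood test, and 20.7% of the 6251 anchors tested were called higher. Its called width was 16171 bp at day 3, against 7032 bp at day 0. The value depended on scaling: with library totals in place of TMM, it was -0.04 (adjusted p = 0.801), and the calls over all anchors changed to 393 higher and 3436 lower, against 1294 higher and 1177 lower with TMM.

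Single contacts of the COL1A1 upstream anchor were tested for 14 consensus loops, with 2 higher at day 3 and 0 lower (4 higher and 1 lower at an unadjusted p under 0.05), where 8.35% of all 16642 loops were called higher. With either day 3 library left out, only 6 of the 14 were still tested. The others reached the minimum of 4 PETs only through the day 3 libraries, so the filter itself favoured high day 3 counts. The contact with 48042322 to 48076203, 232.8 kb away, had 36 and 30 PETs in the day 3 libraries, against 1 and 6 at day 0. Its log2 fold change was 1.90 ± 0.48 (SE), adjusted p = 0.00155. At day 3 an anchor was listed there over 48043641 to 48076203. The day 0 PETs ended at narrower anchors, at 48045330 to 48050303 and at 48051199 to 48065900. The contact with 48170168 to 48180555, 116.7 kb away, had 14 and 18 PETs in the day 3 libraries, against 0 and 0 at day 0. This partner was called over that whole stretch at day 3 and over only 48176949 to 48180555 at day 0. Set against a floor of 3 counts over the day 0 group, it was at least 4.28-fold higher (adjusted p = 0.000286 by edgeR's quasi-likelihood test). The second contact reached the minimum of 4 PETs only through the day 3 libraries, so with 0 and 0 at day 0 it could be called only as higher. With either day 3 library left out it was not tested. The first had 6 PETs in day 0 replicate 2 as well. Its log2 fold change was 1.89 without day 3 replicate 1 and 2.24 without day 3 replicate 2. Without day 0 replicate 1, neither call passed (adjusted p = 0.257 and 0.0521), and the log2 fold change of the first was 1.02 without that library and 3.73 without day 0 replicate 2. The first did not pass with DESeq2 (0.152) or with all libraries thinned to the smallest (0.252).

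The contact of the upstream anchor with 48344646 to 48354495, on the side away from the gene, held the most PETs of any consensus loop in the COL1A1 window. It had 14 and 11 PETs in the ARID1A libraries, 39 and 34 for H3K27ac at day 3, and 30 and 14 at day 0. Its log2 fold change between the H3K27ac groups was -0.58 ± 0.28 (SE), adjusted p = 0.156 by edgeR's quasi-likelihood test. At day 3 the anchor over the COL1A1 start had 49 and 55 PETs to the upstream region, 39.5% of the window's PETs, at a span of 14.9 kb. That short contact could not be listed at day 0, when the start had no anchor. The median log2 fold change was 0.66 over the 14 COL1A1 loops and 0.06 over all loops tested. Since most of the 14 passed the filter only through the day 3 libraries, the filter itself favoured a high median.

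**Figure D3:**
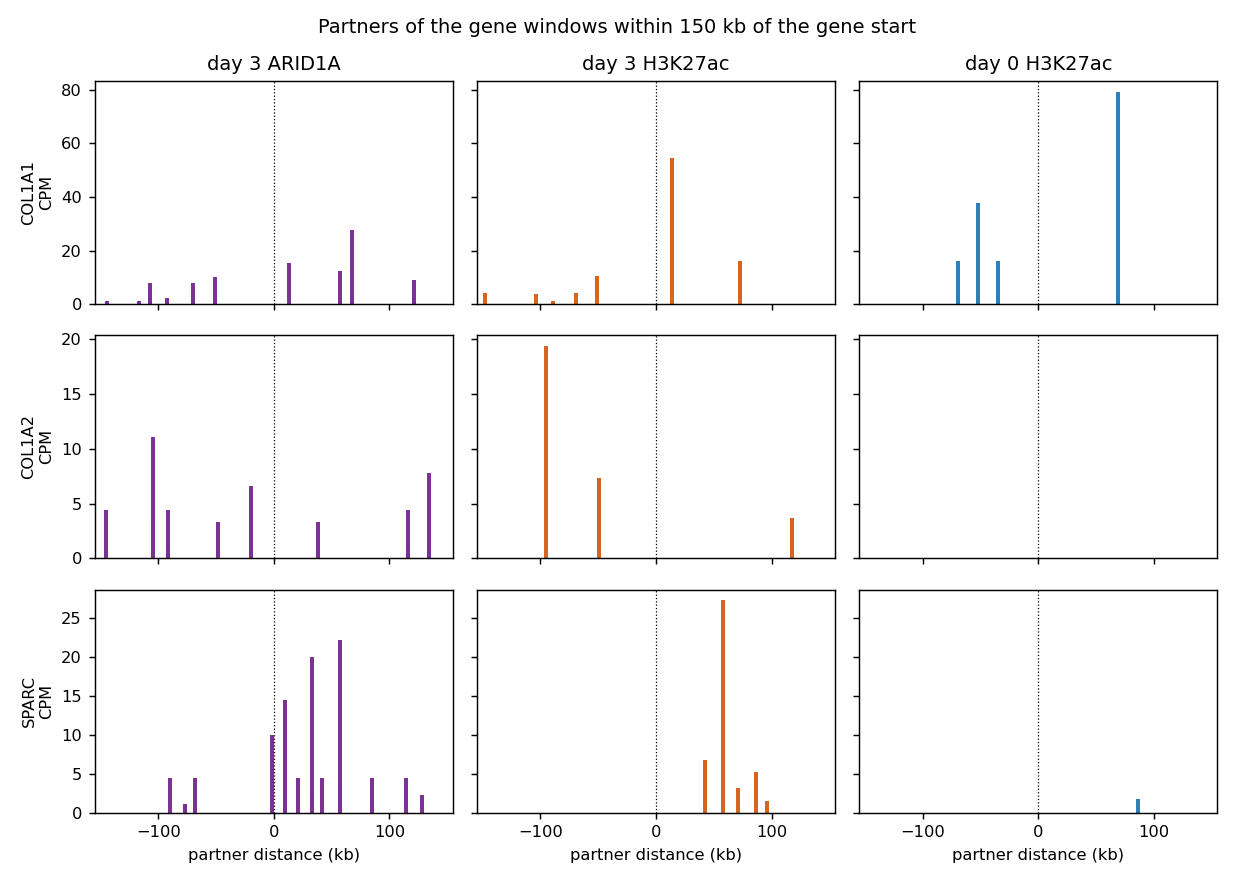
Each panel shows 1 gene (rows) in 1 group (columns), with the partner's distance from the gene start in kb on the horizontal axis, positive towards higher coordinates, and CPM over both libraries on the vertical axis, shared within a row. Lines at the same gene can come from different anchors of the window. At day 3 the tallest H3K27ac lines lie at 14.0 kb for COL1A1, -95.4 kb for COL1A2 and 58.1 kb for SPARC.

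The comparison of ARID1A with H3K27ac, both at day 3, sets the contacts of the SWI/SNF subunit beside those of the active mark. It uses the same day 3 H3K27ac libraries as the comparison above. ARID1A anchors covered the starts of COL1A2 and SPARC, as H3K27ac anchors did, and in addition the end of each of COL1A1, COL1A2 and SPARC, where no H3K27ac anchor was listed. At COL1A1 the ARID1A anchors lay over the end of the gene (48251299 to 48264088) and 2281 bp upstream of its start (48281281 to 48302859), with none over the start itself.

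The SPARC window held 75 and 76 PETs in the ARID1A libraries and 71 and 68 in the day 3 H3K27ac libraries. Scaled to library totals, ARID1A was higher, with 167.5 ± 6.90 CPM against 72.8 ± 5.08 for H3K27ac (SD, n = 2 each). The anchor over the end of the gene (151037295 to 151044525) carried 55 and 56 of the ARID1A PETs, and the anchor over the start carried 23 and 26.

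The COL1A2 window held 37 and 47 PETs in the ARID1A libraries and 40 and 42 in the day 3 H3K27ac libraries. These correspond to 92.8 ± 10.98 CPM for ARID1A and 42.9 ± 0.203 for H3K27ac (SD, n = 2 each). Here too the anchor over the end of the gene (94057579 to 94066814) held more of the ARID1A PETs, 25 and 39, than the anchor over the start, with 12 and 11.

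In the COL1A1 window there were 109 and 111 PETs in the ARID1A libraries, against 134 and 129 in the day 3 H3K27ac libraries, or 243.9 ± 9.20 and 137.8 ± 9.10 CPM (SD, n = 2 each). All 3 windows that could be tested were called higher for ARID1A by edgeR's quasi-likelihood test, where 38.4% of the 10584 windows tested were called higher. The log2 fold changes were 0.80 ± 0.13 for COL1A1, 1.08 ± 0.23 for COL1A2 and 1.17 ± 0.17 for SPARC (SE). The adjusted p values were 9.19e-08, 1.01e-05 and 1.40e-09, in the same order. For COL1A1 the direction turned with the flank, to -1.10 with none (adjusted p = 2.55e-07) and -0.89 with 25 kb (adjusted p = 3.88e-13). For COL1A2 and SPARC it turned when only loops between anchors called in both groups were counted, to -1.52 (adjusted p = 0.00248) and -1.40 (adjusted p = 0.000262). With only loops at a deposited value of 0.01 or less, COL1A1 (0.24, adjusted p = 0.632) and SPARC (-0.28, adjusted p = 0.675) did not pass, and COL1A2 was not tested.

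**Figure D4:**
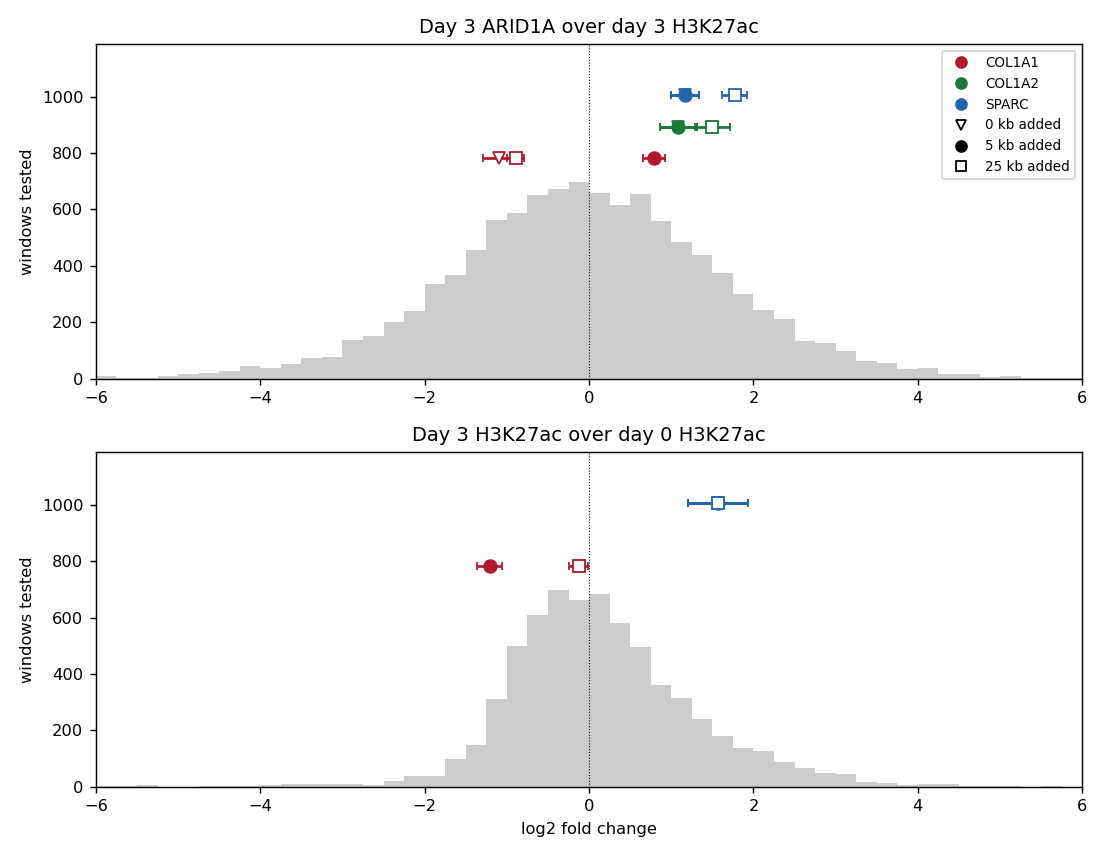
Grey bars count all windows tested by log2 fold change, with values beyond 6 in either direction placed in the end bars, and coloured symbols with SE bars mark the gene windows with 0, 5 or 25 kb added on each side, drawn above the bars at heights without meaning. In the upper panel (day 3 ARID1A over day 3 H3K27ac) COL1A1 moves from 0.80 with 5 kb to -1.10 with 0 kb and -0.89 with 25 kb. In the lower panel (day 3 H3K27ac over day 0 H3K27ac) SPARC stays at 1.57 and COL1A1 moves from -1.21 to -0.13 with 25 kb. The H3K27ac counts of SPARC are the same at 0, 5 and 25 kb, since the flanks add no H3K27ac anchor there.

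At the anchors shared by both assays, ARID1A contacts were lower. Counting only loops between anchors called for both, the COL1A2 start had 5 and 3 PETs in the ARID1A libraries, against 36 and 41 in the day 3 H3K27ac libraries. The SPARC start had 5 and 9 PETs for ARID1A, against 63 and 61 for H3K27ac. The COL1A1 upstream anchor had 63 and 66 PETs for ARID1A, against 277 and 264 for H3K27ac. All 3 anchors tested were called lower, where 32.5% of the 11052 anchors tested were called lower. Both starts reached the minimum of 10 PETs only through the H3K27ac libraries, so the filter itself favoured high H3K27ac counts there. With either of those libraries left out, the COL1A1 upstream anchor alone was still tested.

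The log2 fold changes were -1.56 ± 0.46 (SE) at the COL1A2 start (adjusted p = 0.00176), -1.44 ± 0.36 at the SPARC start (adjusted p = 0.000168) and -0.37 ± 0.14 at the COL1A1 upstream anchor (adjusted p = 0.0147), by edgeR's quasi-likelihood test. The anchors were called over 4188, 5542 and 21578 bp for ARID1A and 6876, 8023 and 16171 bp for H3K27ac. The value at the COL1A1 upstream anchor was -0.66 without day 3 H3K27ac replicate 2 (adjusted p = 0.000101). Without ARID1A replicate 2, the COL1A2 start (adjusted p = 0.0892) and the COL1A1 upstream anchor (0.125) did not pass. Without ARID1A replicate 1, the COL1A1 upstream anchor did not pass (0.0686), nor did it with DESeq2 (0.115) or after thinning (0.0607).

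Contacts of these anchors with partners called in only 1 of the assays were counted as a description. Over all anchors called in both, 31.1% and 30.9% of ARID1A PETs reached partners with no H3K27ac anchor, and 13.3% and 13.3% of H3K27ac PETs reached partners with no ARID1A anchor. At the SPARC start, 18 of 23 and 17 of 26 ARID1A PETs reached partners with no H3K27ac anchor at day 3, against 8 of 71 and 7 of 68 H3K27ac PETs whose partners had no ARID1A anchor. At the COL1A2 start the counts were 7 of 12 and 8 of 11 for ARID1A, against 4 of 40 and 1 of 42 for H3K27ac. At the COL1A1 upstream anchor they were 25 of 88 and 21 of 87 for ARID1A, against 68 of 345 and 81 of 345 for H3K27ac.

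Of 18 consensus loops tested in this comparison, 4 were lower for ARID1A and 0 were higher (6 lower and 0 higher at an unadjusted p under 0.05), where 18.8% of all 28338 loops were called lower. Of the 4, the SPARC and COL1A2 contacts reached the minimum of 4 PETs only through the H3K27ac libraries, so the filter itself favoured high H3K27ac counts there. With either H3K27ac library left out, these contacts were not tested, and only 7 of the 18 loops still were. The SPARC start and 151115756 to 151133945 were joined by 0 and 3 PETs in the ARID1A libraries, against 24 and 28 in the day 3 H3K27ac libraries, a ratio of 0.181 (95% counting interval 0.0363 to 0.561) with an adjusted p of 0.00190. The same distal region was joined to the end of SPARC by 9 and 11 ARID1A PETs. The COL1A2 start and 93924292 to 93936397 were joined by 1 and 0 PETs for ARID1A, against 18 and 19 for H3K27ac, a ratio of 0.0850 (0.00210 to 0.504) with an adjusted p of 0.00322. That region was called over 93924292 to 93932717 for H3K27ac and over 93929032 to 93935488 for ARID1A. The ARID1A anchor there was joined to the end of COL1A2 by 3 and 1 PETs. A separate ARID1A anchor at 93916534 to 93921797 was joined to the start by 2 and 1 PETs and to the end by 5 and 5.

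The other 2 were contacts of the COL1A1 upstream anchor, with 48042322 to 48076203 and with 48222576 to 48234025. Each had an ARID1A library with 4 or more PETs. Without day 3 H3K27ac replicate 1 their log2 fold changes were -2.32 and -1.67, in this order. Without day 3 H3K27ac replicate 2 they were -2.64 and -2.04. The contact with 48042322 to 48076203 had 4 and 1 PETs for ARID1A, against 36 and 30 for H3K27ac, a log2 fold change of -2.04 ± 0.54 (SE, adjusted p = 0.00116 by edgeR's quasi-likelihood test). The contact with 48222576 to 48234025 had 3 and 6 PETs for ARID1A, against 42 and 34 for H3K27ac, a log2 fold change of -1.41 ± 0.44 (adjusted p = 0.00799). With DESeq2, 0 of these 4 passed after adjustment, with log2 fold changes from -1.46 to -3.58 and adjusted p values from 0.0509 to 0.0988, and without a minimum of PETs the adjusted p values were 0.301 to 0.341. Without ARID1A replicate 1, the SPARC contact (-1.39, adjusted p = 0.168) and that with 48222576 (-0.94, 0.214) did not pass, while that with 48042322 was -3.27. Without ARID1A replicate 2, the COL1A2 contact (-2.40, adjusted p = 0.139) and that with 48042322 (-1.28, 0.153) did not pass. The SPARC contact had 0 PETs left without ARID1A replicate 2, as had the COL1A2 contact without ARID1A replicate 1, and no fold is given there. Over the 18 loops the median log2 fold change was -1.11, and over all loops tested it was -0.49. Most of the 18 reached the minimum of PETs only through the H3K27ac libraries, so the filter itself favoured a low median.

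The remaining windows gave few contacts. The COL4A1 and COL4A2 window, 374.1 kb long, held 2 and 1 PETs in the ARID1A libraries, at an anchor inside COL4A2 (chromosome 13, 111098341 to 111102434), and 0 and 0 in each H3K27ac group. COL5A1 also held 2 and 1 ARID1A PETs, at an anchor 26605 bp after its start (chromosome 9, 137560256 to 137563950), and 0 and 0 in each H3K27ac group. Both correspond to 3.37 ± 1.74 CPM (SD, n = 2), and neither could be tested.

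No anchor was listed in the FN1 window, 85.7 kb long, in any of the 6 libraries. The nearest anchor outside it lay 41.8 kb away for ARID1A, with 2 and 1 PETs, and 23.8 kb away for H3K27ac at day 3 (chromosome 2, 216191103 to 216196320), with 5 and 3 PETs. At day 0 the nearest lay 2775 kb away. For COL5A1 the nearest H3K27ac anchor outside the window was 308.4 kb away at day 3 and 1054 kb at day 0. For COL4A1 and COL4A2 these distances were 95.2 kb and 192.6 kb.

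Anchors near the genes ran in the same order as in the whole genome, where libraries listed 26283 and 26350 anchors for ARID1A, 17363 and 17377 for H3K27ac at day 3, and 8594 and 8558 at day 0. Within 150 kb of the COL1A1 start there were 13 ARID1A anchors, 8 H3K27ac anchors at day 3 and 6 at day 0, and near the COL1A2 start there were 10, 5 and 2. Near the SPARC start there were 13, 6 and 2. Near the FN1 start there were 3, 1 and 0. Listed PETs of anchors within 150 kb of the COL1A1 start came to 673.2 and 676.0 CPM for ARID1A, 1144 and 1094 for H3K27ac at day 3, and 1054 and 1069 for H3K27ac at day 0. Around SPARC they were 475.6 and 532.6 CPM for ARID1A, 398.2 and 372.7 for H3K27ac at day 3, and 43.1 and 47.3 at day 0. Around COL1A2 they were 381.4 and 365.8 CPM for ARID1A, 132.4 and 131.3 for H3K27ac at day 3, and 19.9 and 23.7 at day 0. ARID1A was thus below day 3 H3K27ac around COL1A1 and above it around SPARC and COL1A2 on this scale, which was not tested.

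Among 6239 tiles of 50 kb with an anchor in all 3 groups, those whose pattern over the 6 libraries was nearest to each gene window were found by Euclidean distance of centred log2 CPM. The nearest to COL1A1 lay at 19p13.2 (distance 0.160) and 2p22.1 (0.165), and the nearest to SPARC at 12q21.2 (0.232) and 1p13.2 (0.236). For COL1A2, whose day 0 values are set by the lack of an anchor, they lay at 4q28.2 (0.602) and 11p11.2 (0.614). The median distance over all tiles was 2.16 for COL1A1, 3.12 for SPARC and 5.33 for COL1A2.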

How the data were processed

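Paired reads of 150 bp were obtained from the HiChIP libraries, per the labels' protocols. HiC-Pro, Bowtie2 and hg19 are named, without versions, in the submitters' processing notes. How anchors and loops were called is not given in the sources used here. The authors deposited, for each library, anchor pairs with a raw whole-number count of PETs. A deposited value from 0 to 1 per loop, a p-value or q-value that no header identifies, served only as a threshold of 0.01 in an alternative. Positions keep the numbering of the files.

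PETs were summed per gene window. Overlapping anchors of all files were merged into 30001 consensus anchors. Counts went into edgeR 4.0.16 and its quasi-likelihood test (R 4.3.3, TMM, Benjamini-Hochberg over all features, adjusted p under 0.05) on the 4 libraries of the groups compared, together with all 50 kb tiles, all consensus anchors or all consensus loops. Features needed an anchor in both groups (both anchors, for loops) and 10 or more PETs (4 for loops) in at least 2 libraries. CPM values scale the PETs to 1000000 listed PETs per library. The fits were tested on simulated data in which only features at or above the median count changed, so recovery at low counts was not tested. With 2 libraries against 2, an exact permutation test cannot give a p below 0.333. Counting intervals (95%) cover counting error only.

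The members and lists were chosen with earlier results of these data known. The rule for naming covered the anchor over each gene start, the 3 anchors and 3 loops with the most PETs per window, and the 2 nearest tiles by pattern. Of these loops, the third of SPARC (11 and 7 ARID1A PETs) was not described above. Nor were those of COL4A1 with COL4A2 and of COL5A1. The other loops named are those that passed the test, and ARID1A contacts near the distal partner of COL1A2, given as a description. Strongest listed contacts per group are given as descriptions. Strands of COL1A1 and COL1A2 come from general knowledge. A planned list of other matrix genes was not analysed, since no hg19 annotation was used here. Same-numbered replicates did not deviate together over windows (correlation 0.0137 between day 3 and day 0 H3K27ac and 0.00588 between ARID1A and day 3 H3K27ac), so no pairing was assumed. Other scalings, tests, minimums, thresholds, flanks, tile sizes, thinning to 253502 PETs and leaving out each library were tried.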

Additional observations from a re-analysis of the deposited data

How the results depend on the processing

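Of the alternatives to single values, 123 kept direction and side of the threshold, 27 kept direction but no longer passed, and 6 turned direction. Alternatives that left a value untested or without an adjusted p are not in these counts. The 6 were the ARID1A over day 3 H3K27ac windows of SPARC with a deposited value of 0.01 or less (-0.28), of COL1A2 and SPARC with only anchors called in both groups (-1.52 and -1.40) and of COL1A1 with 0 kb (-1.10) and 25 kb (-0.89), and the COL1A1 anchor between H3K27ac times with library totals (-0.0448); the causes were not tested. The COL1A1 window kept its direction with only anchors called in both groups (-9.95 between H3K27ac times and 10.1 for ARID1A), where the group whose anchor is over the gene start has 0 counts by construction. Counts of called windows were 1 between H3K27ac times with the deposited threshold, with anchors called in both groups, with 0 kb and with 25 kb, against 2, and 0 for ARID1A with the deposited threshold (0 at an unadjusted p under 0.05 too), against 3. Called anchors were 0 between H3K27ac times with library totals (0 unadjusted), against 1, and 1 for ARID1A after thinning, against 3. Called loops between H3K27ac times were 0 with DESeq2 (2 unadjusted) and 0 after thinning (1 unadjusted), against 2. For ARID1A they were 0 with DESeq2 (4 unadjusted), 0 with no minimum of PETs (9 unadjusted) and 0 after thinning (2 unadjusted), against 4. Leaving out each library gave 1 to 2 windows, 1 anchor and 0 to 2 loops between H3K27ac times, and 3 windows, 1 to 2 anchors and 2 loops for ARID1A. No anchor of the windows was left among those of similar called width. The replicate block gave 2 and 3 called windows, 1 and 3 anchors and 2 and 4 loops, the same counts as without pairing. Library totals in place of TMM changed the median log2 fold change of all features from -0.01 to -0.62 (anchors) and from 0.06 to -0.51 (loops, 577 higher and 3543 lower against 1389 and 1115) between H3K27ac times, and from -0.05 to -0.70 (anchors, 1767 and 5972 against 3477 and 3597) and from -0.49 to -1.10 (loops, 2583 and 10488 against 4118 and 5314) for ARID1A. Depth limits the SPARC window at day 0, which rests on 7 and 5 PETs.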
